A study of Mus musculus with 40 samples.

Results

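The miRNAs miR-9, miR-124 and miR-128 are described here in hippocampal CA1, the subregion that carries the main output of the hippocampus, in CamKIIδC TG mice and wild-type control mice. Their 7 mature arms, mmu-miR-9-5p, mmu-miR-9-3p, mmu-miR-124-3p, mmu-miR-124-5p, mmu-miR-128-3p, mmu-miR-128-1-5p and mmu-miR-128-2-5p, were taken by name from 1978 mature miRNAs in the deposited counts. Where an arm is listed with several precursors, the row with the largest total was used. The prefix mmu, for mouse, is left out below.

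CamKIIδC TG mice carry a transgene for the δC isoform of a calcium/calmodulin-dependent kinase and serve as a mouse model of heart failure. The promoter that drives the transgene is not given in the sources used here. The 40 small RNA libraries, 1 per mouse, came from 9 CamKIIδC TG and 5 wild-type control mice aged 3 months and from 11 CamKIIδC TG and 15 wild-type control mice aged 6 months. All mice had a C57Bl/6J background, wild-type controls were littermates, and both sexes were used. In the younger wild-type group, mice 1 and 2 have a genotype field of TG against a title of wild-type, and the title was followed.

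A hairpin precursor is cut by Drosha and Dicer into a duplex of a 5p and a 3p arm, and usually one arm is loaded into an Argonaute protein while the other is degraded. The loaded arm finds its target mRNAs mainly through its seed, the bases from position 2 to position 8. miR-124 is enriched in neurons and represses many transcripts of non-neuronal cells. miR-9 acts in neural progenitors and in neurons, and both of its arms are known to be functional. miR-128 is enriched in the brain and limits the excitability of neurons.

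Mature sequences from RefSeq (GRCm38.p6) were found for 5 of the 7 arms. They are shown with the seed in capitals, because the seed decides which arms can share targets.
mmu-miR-9-5p: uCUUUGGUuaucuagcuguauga
mmu-miR-9-3p: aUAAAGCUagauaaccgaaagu
mmu-miR-128-3p: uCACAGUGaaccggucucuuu
mmu-miR-128-1-5p: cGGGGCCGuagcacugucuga
mmu-miR-128-2-5p: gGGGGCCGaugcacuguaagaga

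The 2 minor arms of miR-128 had the same seed, although they come from different hairpins. Of the mature miRNAs in the table, none shared the seed of miR-9-5p, miR-9-3p or miR-128-3p. The seed of miR-128-3p overlapped that of 3 others when moved by 1 base, namely miR-27a-3p, miR-27b-3p and miR-216a-3p.

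The hairpins of miR-128 are shown with the mature arms in capitals, because both give the same 3p arm while each 5p arm belongs to 1 locus.
Mir128-1: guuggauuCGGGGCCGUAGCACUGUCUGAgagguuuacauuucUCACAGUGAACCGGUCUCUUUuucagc
Mir128-2: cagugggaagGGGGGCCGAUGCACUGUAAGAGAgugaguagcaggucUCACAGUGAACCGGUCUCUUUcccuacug

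In GENCODE on GRCm38, Mir128-1 (chr1:128202361-128202430, plus strand) lies within an intron of the protein-coding gene R3hdm1. Mir128-2 (chr9:112118636-112118711, minus strand) lies within an intron of Arpp21, which encodes a cAMP-regulated phosphoprotein. Of the hairpins of miR-9, Mir9-1 (chr3:88215598-88215686) lies in an intron of the noncoding gene Gm3764, Mir9-2 (chr13:83738814-83738885) within an exon of C130071C03Rik, and Mir9-3 (chr7:79505264-79505353) in an intron of Mir9-3hg. Of the hairpins of miR-124, Mir124a-1 (chr14:64590657-64590741) lies within an exon of its noncoding host Mir124a-1hg. Mir124a-2 (chr3:17795662-17795770) overlaps an exon of Mir124-2hg in part and Mir124a-3 (chr2:180894040-180894107) overlaps an exon of Gm27032 in part. All hairpins of miR-9 and miR-124 are on the plus strand.

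The locus of origin could not be read from the counts for most arms. For the arms of miR-9 and miR-124, the precursor with the fewest counts held between 99.47% and 99.998% of the counts of the precursor with the most, since nearly every read matched all 3 hairpins. For miR-128-3p, 71436961 counts lay on the hairpin Mir128-1 and 45742468 on Mir128-2. The second was 64.0% of the first in total and between 57.3% and 67.7% in single libraries. The 3p arm has the same sequence in both hairpins, so that a read of it can be counted on both. Why the counts on the 2 hairpins differed was not tested, and they do not divide the reads between the loci. Only miR-128-1-5p and miR-128-2-5p report 1 locus each.

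Libraries held between 1926108 and 22892729 miRNA counts, with medians of 14340558 in wild-type control and 18431486 in TG mice at 3 months, and 9893109 and 9239179 at 6 months. The 3-month-old libraries were therefore deeper. A principal component analysis of 193 other miRNAs with at least 100 CPM (counts per 1000000 miRNA counts, TMM-normalized) placed 69.7% of the variance on a first component, along which libraries of every group were spread, and 12.9% on a second, along which the ages differed. Of the 14 libraries from 3-month-old mice, 3 lay among the 6-month-old ones on the second component, wild-type control mice 1 and 5 and TG mouse 8. Their scores were between 1.46 and 2.50, the other 11 between -6.95 and -2.03, and the 26 libraries from 6-month-old mice between -0.39 and 3.78. Values without these 3 libraries are given where they touch a result. Because they were singled out by their likeness to the older mice, leaving them out widens the gap between the ages by construction. These 3 libraries held 8215532, 9371603 and 8888162 miRNA counts, below the medians of both 3-month groups. Leaving them out therefore also raises the depth of the 3-month groups.

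The tissue label was compared with markers of cell types. All 16 other miRNAs listed as neuronal were counted in at least some libraries, with a summed level of 81399 to 317176 CPM over all libraries. The largest part of this sum was miR-127-3p, with a mean of 90252 CPM. The lowest of the list, miR-33-5p, averaged 1.13 CPM and was at 0 in 3 libraries. Oligodendrocyte miRNAs summed to 941 to 2828 CPM and vessel miRNAs to 9492 to 22413 CPM. The heart miRNA miR-208a-3p was at 0 in 39 of 40 libraries and miR-196a-5p, known for the spinal cord, in 35. Counts of miR-10b-5p, known for hindbrain and cord, were present in every library, with a mean of 22.5 CPM and a range of 1.80 to 124.4 CPM, as were those of the liver miRNA miR-122-5p, with a mean of 14.2 CPM and a range of 8.14 to 33.8 CPM.

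miR-128-3p was the most abundant miRNA of all, with 15.2% of the miRNA counts, and miR-9-5p ranked second by total counts with 8.27%. miR-9-3p ranked 33rd and miR-124-3p 36th by total counts, whereas miR-124-5p, miR-128-1-5p and miR-128-2-5p ranked 200, 277 and 291. Totals give more weight to the deeper libraries. By mean CPM, miR-128-3p again ranked first, miR-9-5p ranked 4, miR-9-3p 38, miR-124-3p 42, miR-124-5p 215, miR-128-1-5p 264 and miR-128-2-5p 279. On average over the 40 libraries, miR-128-3p reached 164737 ± 56326 CPM (SD, n = 40), miR-9-5p 75707 ± 12165 CPM, miR-9-3p 3973 ± 1487 CPM and miR-124-3p 3122 ± 1443 CPM. miR-124-5p averaged 78.4 ± 33.6 CPM, miR-128-1-5p 37.5 ± 15.0 CPM and miR-128-2-5p 32.6 ± 18.8 CPM. miR-9-3p and miR-124-3p differed by less than the SD of either, and so did the 2 minor arms of miR-128, while the other neighbours in this order lay further apart than their SDs. miR-128-2-5p, the lowest by total, had between 91 and 757 counts in each library, and the lowest count of any arm was 34, for miR-124-5p. CPM are relative to the TMM-scaled total of a library and were not calibrated against known amounts. Levels of different arms therefore describe counts and not molecules.

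**Figure D1:**
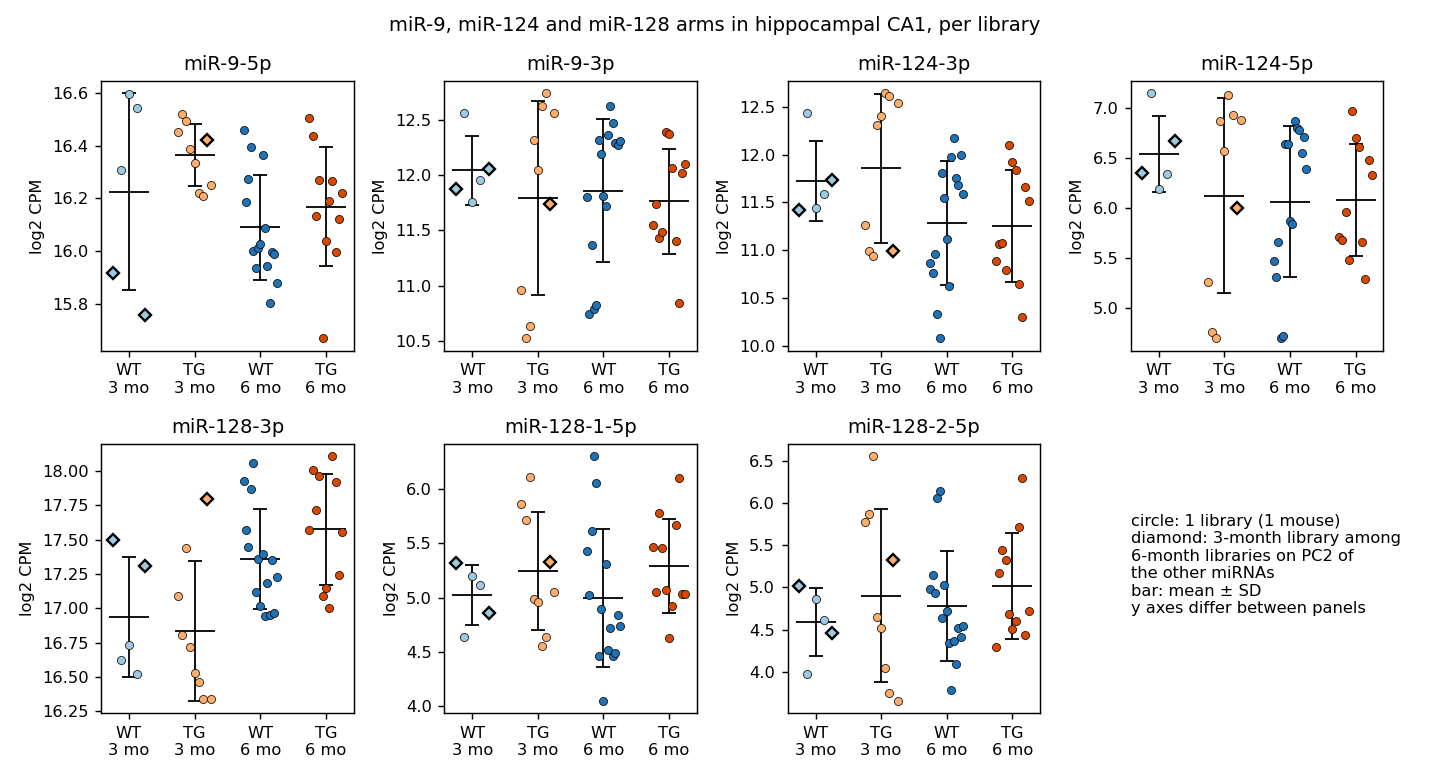
Level of each of the 7 arms (log2 CPM, y axis) in every library by genotype and age (x axis), with the mean ± SD of each group as a bar. Diamonds mark the 3 libraries from 3-month-old mice that lay among the 6-month-old ones in the other miRNAs. miR-128-3p is on average higher at 6 months in TG mice, and no arm fully separates the groups compared. For miR-9-5p, 6 of 11 TG mice at 6 months lie below all 9 at 3 months, and for miR-124-3p 4 of 11 do.

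To see whether age altered these miRNAs in heart failure, 6-month-old TG mice were compared with 3-month-old TG mice. miR-128-3p was upregulated with age, and it was the single arm of the 7 that passed an adjusted p of 0.05 and an absolute log2FC of 0.26 in edgeR. Among all 629 miRNAs tested, 15.7% passed, 7.47% as higher and 8.27% as lower, so that 1 of 7 is near the share of all miRNAs. At an unadjusted edgeR p under 0.05, 2 of 7 arms and 32.4% of all miRNAs passed.

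The miR-128-3p level was 82788 CPM in the lowest, 107744 in the median and 227000 in the highest of the 9 TG libraries at 3 months. At 6 months it was 131166, 194701 and 282537 CPM in the 11 TG libraries. Every 6-month-old TG mouse was above the 3-month mean, 4 of 11 were above all 3-month-old TG mice, and 6 of 9 of the younger mice were below all older ones, so that the groups overlapped. Means were 124150 ± 49333 CPM in the younger (SD, n = 9) and 202034 ± 54637 CPM in the older mice (SD, n = 11). The log2FC was 0.73 (SE 0.21, edgeR adjusted p = 0.0210), and over 13 alternative settings it lay between 0.45 and 0.88, with adjusted p between 1.14e-16 and 0.109. TG mouse 8 had the highest miR-128-3p of the younger mice, and without it the log2FC was 0.88 (SE 0.19, edgeR adjusted p = 0.00213). Depth differed with age in the same libraries. With the log2 miRNA total as a covariate the log2FC was 0.47 (SE 0.19, edgeR adjusted p = 0.109) and the call was lost.

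The minor arms from the same hairpins did not pass the test. miR-128-1-5p had a log2FC of 0.03 (SE 0.22, edgeR adjusted p = 0.946) and miR-128-2-5p of -0.06 (SE 0.35, edgeR adjusted p = 0.927). Both signs turned under other settings.

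miR-124-3p had the largest negative log2FC among the 7 arms, -0.66 (SE 0.28, unadjusted edgeR p = 0.0253), and did not pass after adjustment (edgeR adjusted p = 0.102). Its level in TG mice was 1957 CPM in the lowest, 5060 in the median and 6385 in the highest library at 3 months, and 1261, 2159 and 4396 CPM at 6 months. The younger TG mice fell into 2 sets, 4 libraries between 1957 and 2460 CPM and 5 between 5060 and 6385 CPM. The upper 5 lay above all 6-month-old TG mice. These 5 were also the deepest, with 18431486 to 22892729 miRNA counts, against 8888162 to 16817018 in the lower 4. The deepest 6-month-old TG library held 16612207. The part of depth in this split was not tested. Means were 4176 ± 1992 CPM in the younger (SD, n = 9) and 2630 ± 1044 CPM in the older mice (SD, n = 11). miR-124-5p had a log2FC of -0.18 (SE 0.31), miR-9-5p of -0.17 (SE 0.11) and miR-9-3p of -0.16 (SE 0.27), none past the threshold. For miR-9-5p, 6 of 11 older TG mice were below every younger one, and 1 of 9 younger mice was above every older one. For miR-124-3p the log2FC was -0.11 (SE 0.11, edgeR adjusted p = 0.454) with a spike-in factor and -0.09 (SE 0.24, edgeR adjusted p = 0.853) with depth as a covariate, and -0.75 (SE 0.27, edgeR adjusted p = 0.0569) without TG mouse 8. Estimates for miR-9-3p and miR-124-5p turned in sign with a spike-in factor or with depth as a covariate. With the spike-in factor both passed as higher at 6 months, with a log2FC of 0.40 (edgeR adjusted p = 0.0226) for miR-9-3p and 0.45 (edgeR adjusted p = 0.0145) for miR-124-5p.

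In wild-type control mice, the comparison of 6 with 3 months asked whether the same occurs without the transgene. None of the 7 arms passed in edgeR, where 0.152% of 660 miRNAs passed, and DESeq2 without further factors called none of the 7 either. At an unadjusted p of 0.05, 1 of 7 arms passed, miR-128-3p, as did 102 (15.5%) of all miRNAs.

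miR-128-3p was at 185407, 100739, 108803, 93992 and 162044 CPM in 3-month-old wild-type control mice 1 to 5, and at 125959 in the lowest, 166986 in the median and 272780 CPM in the highest of 15 mice at 6 months. The 2 highest of the younger mice, 1 and 5, are those that lay among the older mice in the other miRNAs, and the other 3 were below every 6-month-old mouse. The log2FC was 0.40 (SE 0.19, unadjusted edgeR p = 0.0492, edgeR adjusted p = 0.321). Without mice 1 and 5 it was 0.77 (SE 0.24, edgeR adjusted p = 0.0506). Over 17 alternatives the log2FC lay between 0.18 and 0.82, with adjusted p between 0.000411 and 0.771. The difference between the genotypes in this age effect was 0.29 (SE 0.29, TG minus wild-type, edgeR adjusted p = 0.986 for the interaction), and 0.10 (SE 0.28) without the 3 libraries. An age effect particular to TG mice was therefore not shown for miR-128-3p.

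miR-124-3p was at 2742, 5532, 2780, 3069 and 3403 CPM in 3-month-old wild-type control mice 1 to 5, with mouse 2 far above the others. Mouse 2 also had the deepest library of this group, with 19610629 miRNA counts. In the 15 older mice miR-124-3p was at 1080 in the lowest, 2980 in the median and 4614 CPM in the highest. Of these mice, 7 were below all younger mice. The log2FC was -0.37 (SE 0.28, edgeR adjusted p = 0.540), and for miR-124-5p it was -0.36 (SE 0.31). For miR-124-3p it was -0.0048 (SE 0.11) with a spike-in factor, -0.05 (SE 0.22) with depth as a covariate, -0.51 (SE 0.35) without mice 1 and 5 and -0.14 without mouse 2. miR-9-5p was at 61900, 81117, 99048, 95521 and 55448 CPM in the 5 younger mice, a range as wide as that of the 15 older ones, which ran from 57140 to 90031 CPM. Its log2FC was -0.17 (SE 0.14) and -0.39 (SE 0.14, edgeR adjusted p = 0.0971) without mice 1 and 5, the 2 lowest of the younger ones. The log2FC of miR-9-3p was -0.10 (SE 0.27), that of miR-128-1-5p 0.06 (SE 0.29) and that of miR-128-2-5p 0.27 (SE 0.31).

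**Figure D2:**
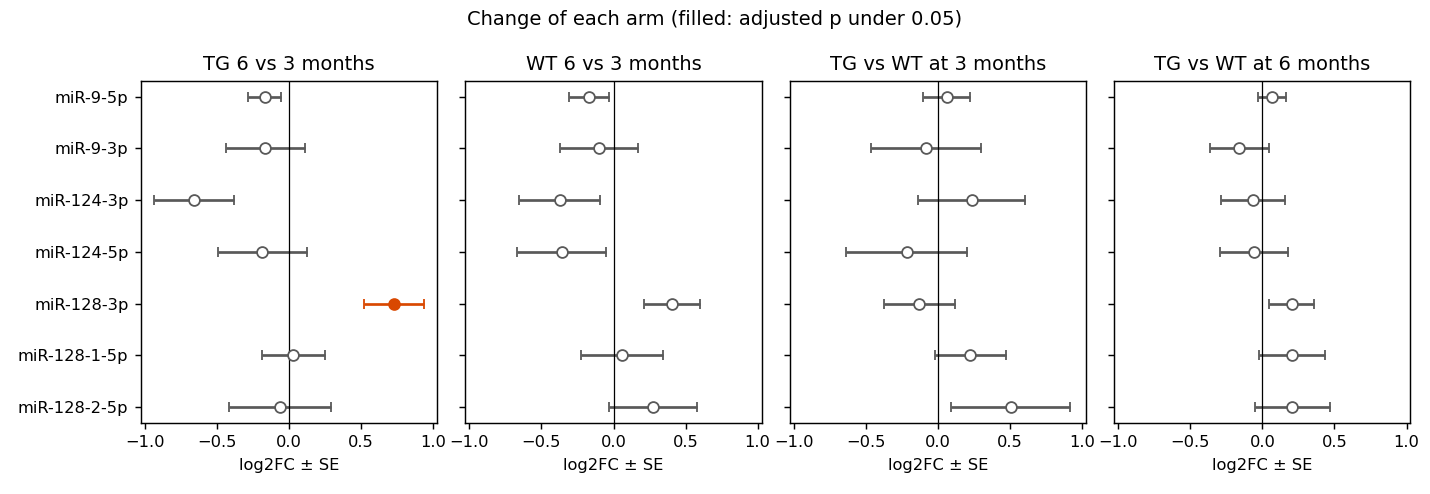
Log2FC with its standard error (x axis) of each arm (y axis) in the 4 comparisons, from edgeR. miR-128-3p in TG mice, at 0.73, is the single filled point, which marks an adjusted p under 0.05, and its estimate in wild-type control mice was 0.40.

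Genotypes were then compared within each age. At 3 months, none of the 7 arms passed in edgeR or in DESeq2 without further factors, and none had an unadjusted p under 0.05 in edgeR. DESeq2 with 2 factors for unwanted variation (RUVr) called 3 arms, beside 89 of 1593 miRNAs. Of 695 miRNAs tested, 0% passed and 7 (1.01%) had an unadjusted edgeR p under 0.05. The log2FC of TG over wild-type ranged from -0.22 (SE 0.42) for miR-124-5p to 0.51 (SE 0.41) for miR-128-2-5p. For miR-9-5p it was 0.06 (SE 0.17), for miR-124-3p 0.23 (SE 0.37) and for miR-128-3p -0.13 (SE 0.25). Standard errors of this size leave differences of more than the log2FC threshold within reach for every arm.

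At 6 months, where the groups were larger, none of the 7 passed in edgeR or DESeq2, none had an unadjusted edgeR p under 0.05, and 0% of 612 miRNAs passed, with 3 (0.49%) at an unadjusted edgeR p under 0.05. The log2FC of TG over wild-type was 0.06 (SE 0.10) for miR-9-5p, -0.16 (SE 0.20) for miR-9-3p, -0.06 (SE 0.22) for miR-124-3p and -0.06 (SE 0.24) for miR-124-5p. It was 0.20 (SE 0.16) for miR-128-3p and 0.21 for each of its minor arms (SE 0.23 for miR-128-1-5p and 0.26 for miR-128-2-5p). Over all 4 groups, no arm passed for the interaction of age and genotype in edgeR or in DESeq2 without further factors. None had an unadjusted edgeR p under 0.05. In edgeR 0% of 699 miRNAs passed, with 14 (2%) at an unadjusted edgeR p under 0.05. DESeq2 with 2 RUVr factors called 1 arm for the interaction, beside 6 of 1695 miRNAs.

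The ratio of 2 arms is taken within a library and does not depend on how libraries are scaled. It is not free of other differences between libraries. With the first component of the other miRNAs, r was 0.28 for miR-9-5p and -0.92 for miR-9-3p. Depth also differed with age, and the part of depth in the ratios was not tested. Over the 40 libraries, the median miR-9-5p count was 18.0 times that of miR-9-3p, and single libraries ranged from 9.72 to 63.9 times. miR-124-3p was counted 38.0 times as often as miR-124-5p (range 27.6 to 75.3). miR-128-3p was counted 2639 times as often as both of its 5p arms together (range 1039 to 3821). The 5p arm of Mir128-2 was at 0.797 times that of Mir128-1 (range 0.376 to 1.61). The log2 of each ratio was compared in 16 two-sided permutation tests, 4 ratios in 4 comparisons, with Benjamini-Hochberg adjustment over the 16.

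The ratio of miR-124-3p to miR-124-5p was lower in 6-month-old than in 3-month-old TG mice. It was 31.8 in the lowest, 51.4 in the median and 75.3 in the highest of 9 younger TG libraries, and 31.8, 36.4 and 41.9 in the 11 older ones. All 11 older mice were below the younger mean, and 8 of the 9 younger mice were above every older one, while TG mouse 8 lay among them. The log2 ratio changed by -0.56 (SE 0.14, exact permutation p = 0.00044, adjusted p = 0.00705), and by -0.65 (SE 0.11, adjusted permutation p = 0.00042) without mouse 8.

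Wild-type control mice had no such spread at 3 months. Their ratios were 33.7, 39.2, 38.1, 38.0 and 33.6 in mice 1 to 5, and 27.6 in the lowest, 38.2 in the median and 49.4 in the highest of the 15 mice at 6 months. The log2 ratio changed by 0.03 with age (SE 0.07, exact permutation p = 0.736). At 3 months, 8 of 9 TG mice were above all 5 wild-type control mice, with a log2 difference of 0.55 (SE 0.14, exact permutation p = 0.0110), which did not pass after adjustment (adjusted p = 0.0586). At 6 months the difference was -0.04 (SE 0.07). Since 3-month-old TG libraries enter both contrasts, the drop with age and the difference at 3 months are not independent.

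The ratio of miR-128-3p to its 5p arms was higher in 6-month-old than in 3-month-old TG mice. In TG libraries it was 1039 in the lowest, 1820 in the median and 2837 in the highest at 3 months, and 1685, 2868 and 3821 at 6 months. Of the older mice, 10 of 11 were above the younger mean and 6 were above all younger mice. The log2 ratio changed by 0.67 (SE 0.19, exact permutation p = 0.00239, adjusted p = 0.0191). In wild-type control mice the ratio was 2571, 2498, 1665, 1597 and 3196 in younger mice 1 to 5 and had a median of 3060 in the older ones, a log2 change of 0.34 (SE 0.21, exact permutation p = 0.0891, adjusted p = 0.357). This was 0.58 (SE 0.22, adjusted permutation p = 0.0882) without mice 1 and 5 and 0.22 (SE 0.21) without mouse 4. This age effect differed between the genotypes by 0.33 (TG minus wild-type, SE 0.29, adjusted permutation p = 0.572). That test was added after the data were examined. The difference was 0.18 (SE 0.29) without wild-type control mice 1 and 5 and TG mouse 8. At 3 months, the log2 ratio differed by -0.39 (TG minus wild-type, SE 0.26, exact permutation p = 0.176, adjusted p = 0.563). An age effect particular to TG mice was therefore not shown for this ratio. The ratios of miR-9-5p to miR-9-3p and of the 2 minor arms of miR-128 passed in no comparison.

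**Figure D3:**
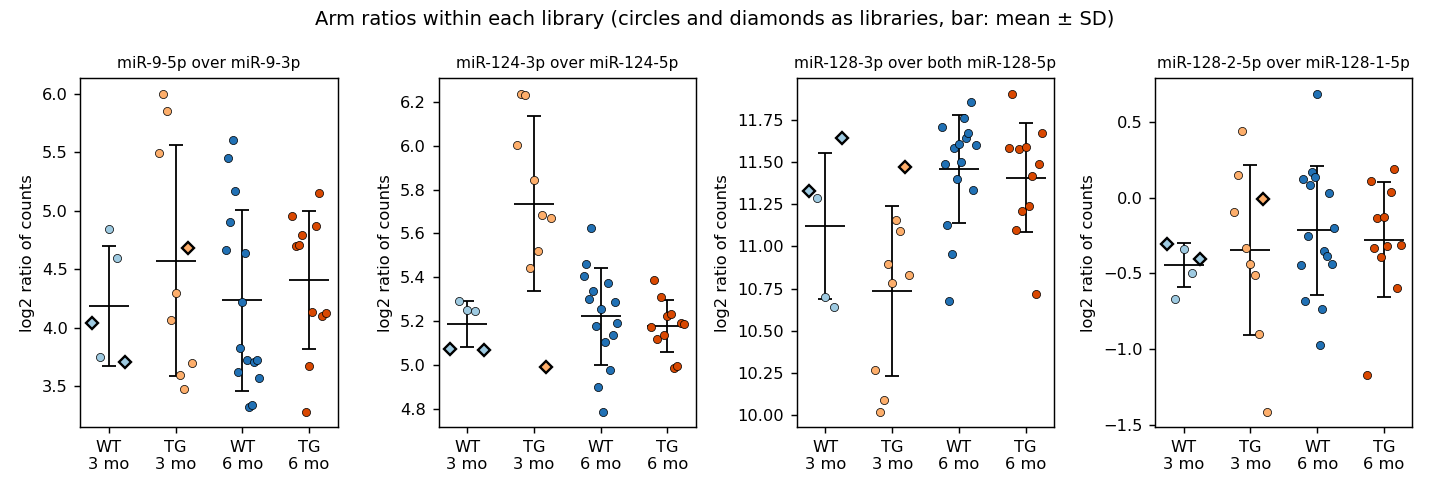
Log2 ratio of 2 arms within each library (y axis) by genotype and age (x axis), with the mean ± SD of each group as a bar and the 3 libraries that lay apart as diamonds. For miR-124, 8 of 9 TG libraries at 3 months lie above all 5 wild-type libraries of that age, and for miR-128 most TG libraries at 3 months lie low.

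Within groups, single mice differed widely. miR-124-3p varied 3.26-fold among 3-month-old TG, 4.27-fold among 6-month-old wild-type control and 3.49-fold among 6-month-old TG mice. miR-9-5p varied at most 1.79-fold in any group. To see which arms shared this spread, the deviations of log2 CPM from the group mean were correlated over the 40 libraries, for 8 pairs with permutation p-values adjusted over the 8. All values are TMM-normalized CPM, which are relative to the other miRNAs of a library and not absolute amounts. The part of this scaling in the correlations was not tested.

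The arms of miR-124 moved together, with r = 0.945 (Spearman rho 0.931, adjusted permutation p = 1.6e-05 for each, from the smallest p that the resamples can give, n = 40), and r was 0.939 without the 2 mice farthest from the median. Within the larger groups, r was 0.920 in 3-month-old TG, 0.961 in 6-month-old wild-type control and 0.980 in 6-month-old TG mice. miR-124-3p and miR-128-3p moved oppositely, with r = -0.811 (Spearman rho -0.822, adjusted permutation p = 1.6e-05 for each, n = 40), -0.802 without the 2 farthest mice, and -0.861, -0.832 and -0.895 within the same groups. Leaving out the 3-month-old TG mice, which fall into 2 sets, gave 0.963 for the first pair and -0.787 for the second over 31 libraries.

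The arms of miR-9 did not move together. For miR-9-5p and miR-9-3p, r was -0.443 (adjusted permutation p = 0.00478) and Spearman rho -0.581 (adjusted permutation p = 0.000173, n = 40), and r was -0.450 without the 2 farthest mice. It was -0.934 in 3-month-old TG, -0.586 in 6-month-old wild-type control and -0.327 in 6-month-old TG mice. Instead, miR-9-3p followed miR-124-3p, a pair chosen after the data were examined, with r = 0.915 (Spearman rho 0.914, adjusted permutation p = 2e-05 and 2.67e-05, n = 40), 0.904 without the 2 farthest mice, and 0.908, 0.912 and 0.963 within the groups.

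The arms of miR-128 moved together. miR-128-3p had r = 0.699 with miR-128-1-5p and 0.756 with miR-128-2-5p, and the 2 minor arms had 0.812 with each other, although they come from different chromosomes (Spearman rho 0.714, 0.780 and 0.755, adjusted permutation p = 1.6e-05 for each, n = 40). Without the 2 farthest mice, r was 0.717, 0.758 and 0.762. miR-9-5p and miR-128-3p had r = 0.249 (adjusted permutation p = 0.121) and Spearman rho 0.335 (adjusted permutation p = 0.0347, n = 40). The r was 0.277 without the 2 farthest mice and 0.718, 0.613 and 0.484 within the 3 larger groups. In 3-month-old wild-type control mice, where no r was computed, mice 1 and 5 had the lowest miR-9-5p, at 61900 and 55448 CPM. They also had the highest miR-128-3p, at 185407 and 162044 CPM. An r without the 3 libraries that lay apart was not computed. miR-9-5p and miR-124-3p had r = -0.480 (adjusted permutation p = 0.00211) and Spearman rho -0.527 (adjusted permutation p = 0.000811, n = 40), and r was -0.475 without the 2 farthest mice.

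These deviations followed the depth of the libraries. The 7 relations with depth and that of miR-9-3p with miR-124-3p were computed after the data were examined, and adjusted as a family of 8. With the log2 miRNA total of a library, r was 0.723 for miR-124-3p, 0.648 for miR-124-5p and 0.647 for miR-9-3p, and it was -0.628 for miR-128-3p, -0.685 for miR-128-1-5p and -0.697 for miR-128-2-5p (n = 40). miR-9-5p had r = -0.016 (adjusted permutation p = 0.924), but its groups differed. Its r with depth was -0.764 in 3-month-old TG, -0.267 in 6-month-old wild-type control and 0.123 in 6-month-old TG mice. For the other 6 arms the adjusted permutation p of r was at most 3.43e-05 and that of Spearman rho at most 0.000126, with rho from 0.604 to 0.680 for the first 3 and from -0.630 to -0.599 for the last 3. Without the 2 libraries farthest in depth, r ran from 0.582 to 0.671 and from -0.612 to -0.601. With the first component of the 193 other miRNAs, which was computed from the levels with group means kept in, the r of the levels over the 40 libraries, given as a description, was -0.960 for miR-124-3p, -0.950 for miR-124-5p, -0.924 for miR-9-3p and 0.793 for miR-128-3p. The part of depth in the spread of these arms was not tested.

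**Figure D4:**
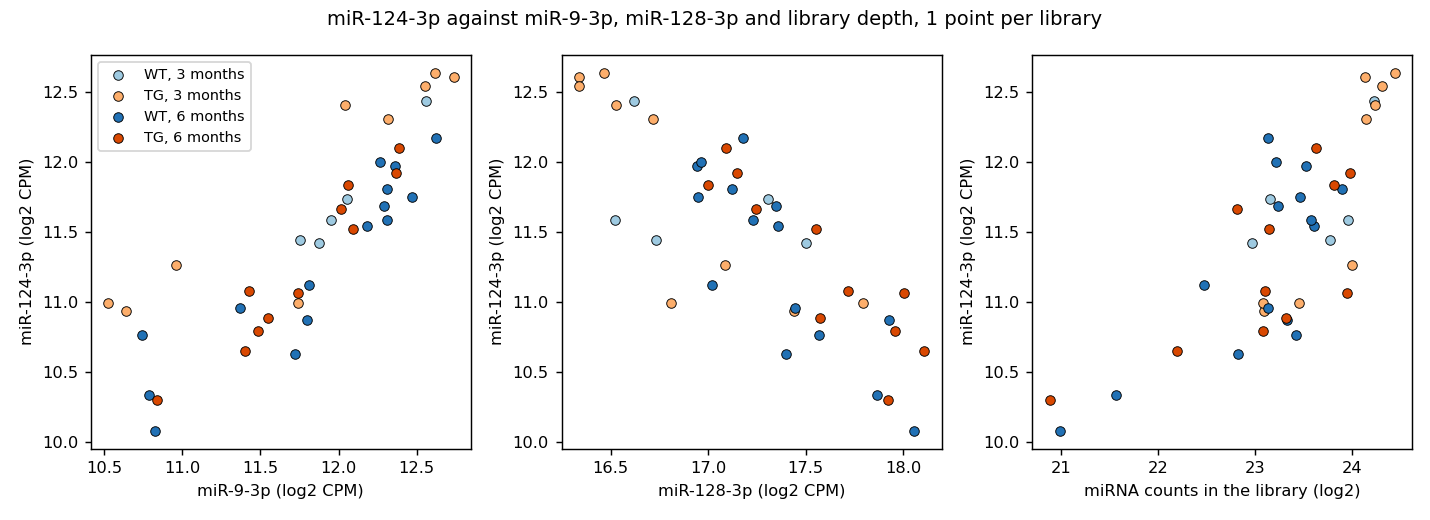
miR-124-3p (log2 CPM, y axis) against miR-9-3p, miR-128-3p and the log2 number of miRNA counts in the library (x axes), with 1 point per library coloured by genotype and age. miR-124-3p rises with miR-9-3p and with depth and falls with miR-128-3p within the groups.

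**Figure D5:**
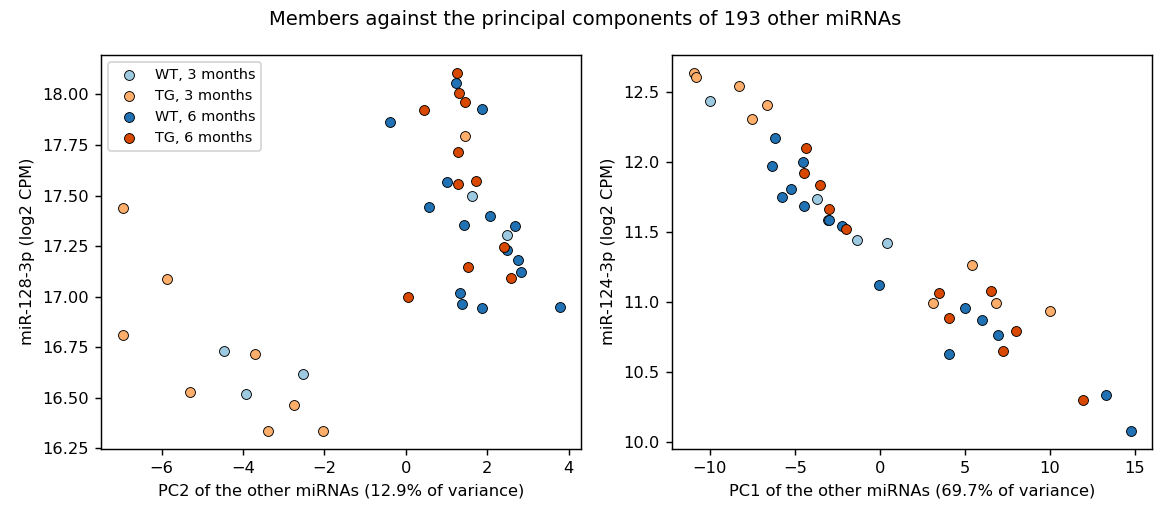
miR-128-3p (log2 CPM) against the second principal component and miR-124-3p against the first, both of 193 other miRNAs, with 1 point per library coloured by genotype and age. On the second component 3 libraries from 3-month-old mice lie among those from 6-month-old mice, and miR-124-3p falls along the first with r = -0.960.

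The miRNAs whose deviations were most like those of the main arms were searched among the 193 others over the 40 libraries. For miR-124-3p they were miR-30b-5p (r = 0.972), miR-16-5p (r = 0.963) and miR-361-5p (r = 0.959), each above its r of 0.945 with miR-124-5p. For miR-128-3p they were miR-543-3p (r = 0.878), miR-674-3p (r = 0.870) and miR-1198-5p (r = 0.859), and for miR-9-5p miR-598-3p (r = 0.880), miR-488-3p (r = 0.855) and miR-101b-3p (r = 0.815). Those of miR-128-3p were above its r of 0.699 and 0.756 with its own 5p arms.

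Entries that resemble the members were low or differed from them. The reverse complement of all 21 bases of miR-9b-3p lies within miR-9-5p, since this entry is read from the opposite strand, and it averaged 1.48 ± 0.65 CPM (SD, n = 40). miR-9b-5p averaged 2.60 ± 1.12 CPM and miR-124b-3p 4.01 ± 3.92 CPM. Of the miRNAs with the shifted seed of miR-128-3p, miR-27b-3p averaged 7030 ± 1590 CPM and fell between 3 and 6 months in TG mice with a log2FC of -0.46 (SE 0.12, edgeR adjusted p = 0.0124). miR-27a-3p averaged 730 ± 144 CPM with a log2FC of 0.28 (SE 0.15, edgeR adjusted p = 0.208).

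Some markers of cell types moved with age in the TG mice as well, where 7.47% of all 629 miRNAs passed as higher and 8.27% as lower. Of 16 other neuronal miRNAs, 1 rose between 3 and 6 months and none fell, with a median log2FC of -0.01 beside -0.09 over all 629 miRNAs, so that 1 of 16 is near the share of all miRNAs. The one that rose was miR-218-5p, an abundant neuronal miRNA, with a log2FC of 0.55 (SE 0.16, edgeR adjusted p = 0.0210). Of 4 oligodendrocyte miRNAs, 2 fell, miR-219a-2-3p with a log2FC of -0.57 (SE 0.15, edgeR adjusted p = 0.0119) and miR-338-3p with -1.02 (SE 0.28, edgeR adjusted p = 0.0157). Their list summed to 1601 to 2828 CPM in the younger and 1045 to 1863 CPM in the older TG mice. The vessel miRNA miR-126a-3p rose by 0.73 (SE 0.14, edgeR adjusted p = 0.00146), 1 of 4 in its list, which summed to 9582 to 16931 and 13228 to 21004 CPM. The rest of that list did not pass, with miR-126a-5p at -0.33, miR-143-3p at 0.28 and miR-145a-5p at 0.03. Of 5 miRNAs known for choroid plexus and other epithelium, 2 rose, miR-204-5p by 0.89 and miR-211-5p by 1.07, and the list summed to 425 to 1042 and 788 to 1197 CPM. The rest of this list had negative estimates that did not pass, -0.36 for miR-200a-3p, -0.07 for miR-200b-3p and -0.86 for miR-449a-5p. Its median log2FC was -0.07, near the -0.09 over all miRNAs. Of 5 erythroid miRNAs, miR-451a rose by 0.68 while miR-144-3p fell by 0.98 and miR-486a-3p fell by 2.14, and none of 5 microglial and leukocyte miRNAs passed. In the other 3 comparisons and the interaction none of these list members passed in edgeR. The part of cell composition in the change of miR-128-3p was not tested, and in whole tissue fewer cells of a type and less RNA per cell cannot be told apart.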

How the data were processed

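Small RNA from CA1 of 40 mice was sequenced, and groups follow the sample titles. The titles number the libraries within a group, each was taken as 1 mouse, and p-values measure the spread between these samples. Per the labels, 300 ng of RNA entered a NEBNext small RNA library. Per the submitters' processing notes, reads passed bcl2fastq 2.20.2, FastQC 0.11.5 and cutadapt 2.8 (the paper gives another cutadapt version). Per the paper, mirdeep2 aligned them to mm10 and counted them on miRBase precursors. The authors deposited raw counts of 2128 pairs of mature miRNA and precursor and the same values as RPM, which equal the scaled counts within 0.005.

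The 7 arms and all marker lists were chosen with earlier results of these data known. Each of 1978 mature miRNAs was represented by its precursor with the highest total, and 52 spike-in entries were left out. Each comparison was fitted over all miRNAs with edgeR 4.0.16 (R 4.3.3): filterByExpr (minimum count 10, minimum total 15), TMM, the quasi-likelihood F test and Benjamini-Hochberg adjustment. Called means adjusted p under 0.05 and absolute log2FC above 0.26, 6 over 3 months or TG over wild-type. CPM are TMM-normalized, and log2 CPM use a prior count of 2. Arm ratios use counts plus 0.5 and two-sided permutation tests (scipy 1.17.1), exact where a group has fewer than 10 mice and with 100000 resamples otherwise, as for correlations. The edgeR test was checked on simulated counts, drawn independently for each miRNA, and the permutation tests were not. No pair of libraries in a group was a copy of another. Named miRNAs are the 7 arms, the 3 most alike to each main arm, entries with a similar name or seed, and the marker lists. Alternatives were DESeq2 1.42.0 with and without factors, a spike-in factor, limma 3.58.1 on log2 of the deposited RPM plus 1, RLE, no filter, summed precursors, a joint fit, a replicate block and fewer mice. A floor of 3 counts covers counting error only. The mRNA data of the study were not analysed here.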

Additional observations from a re-analysis of the deposited data

Results flagged for a closer look

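The change of the miR-124-3p to miR-124-5p ratio between 3 and 6 months differed between the genotypes by -0.59 on the log2 scale (TG minus wild-type, SE 0.16), with -0.56 in TG mice, where 11 of 11 older mice were below the younger mean, and 0.03 in wild-type control mice, where 6 of 15 were. The genotype labels were permuted within each age, a test added after the data were examined, with p = 0.0117 in a permutation test and 0.0467 after adjustment over 4 ratios. None of the other ratios passed, with adjusted permutation p from 0.572 to 0.705. The difference kept its sign in all 10 alternatives, from -0.62 to -0.49, but passed an adjusted p of 0.05 in 2 of them, with summed precursors and without the 3 libraries that lay apart. It did not pass without any 1 of the 5 wild-type control mice at 3 months (adjusted permutation p between 0.061 and 0.0943), without TG mouse 3 (0.0659), without wild-type control mice 1 and 2 (0.142) or with these 2 counted as TG (0.32). No group of 4 to 10 mice held a mouse beyond Dixon's critical value for any of the arms or ratios, in 22 tests. The outcome of such a test can depend on the scale of the values. For miR-124-3p in 3-month-old wild-type control mice, mouse 2 was at 5532 CPM and the next highest at 3403 CPM.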

How the results depend on the processing

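The call of miR-128-3p in TG mice held under 12 of 13 alternatives and was lost with depth as a covariate, which left 0 of 7 arms and 66 of 629 miRNAs called. The count of called arms in TG mice was 2 with DESeq2 and 2 RUVr factors, with miR-124-3p as the other (log2FC -0.60), beside 330 of all 1621 miRNAs tested there, and 3 with the spike-in factor, beside 218 of 629. With the RUVr factors it was 3 in wild-type control mice with age (miR-124-3p, miR-124-5p and miR-128-3p), beside 216 of 1574 miRNAs, 3 for TG over wild-type at 3 months (miR-9-3p, miR-124-5p and miR-128-2-5p), beside 89 of 1593, and 1 for the interaction (miR-124-5p), beside 6 of 1695. Apart from these and the replicate block in wild-type control mice, given next, counts of called arms were equal under the alternatives, as were the counts of arm ratios past 0.05. The cause of these shifts was not tested.

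Replicate numbers recur between groups, but same-numbered mice did not all deviate together: the mean correlation between the ages was 0.226 for TG mice and 0.035 for wild-type controls, and between genotypes 0.0068 at 3 months and 0.259 at 6 months, and in each comparison 1 mouse correlated best with its own number. With the replicate block, 5 of 7 arms were called in wild-type control mice with age, and 250 of 660 miRNAs. They were miR-9-3p at -0.96, miR-124-3p at -1.14, miR-124-5p at -1.37, miR-128-3p at 0.82 and miR-128-2-5p at 0.85.

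Most small log2FC that passed no test turned in sign somewhere. With the block these were 0.20 for miR-128-2-5p with age in TG mice, 0.019 for miR-9-5p with age in wild-type control mice, -0.22 for miR-124-3p at 3 months (here and below TG over wild-type), and -0.0098 for miR-9-5p, 0.042 for miR-9-3p, 0.10 for miR-124-3p and 0.16 for miR-124-5p at 6 months. With 1 spike-in factor they were 0.40 for miR-9-3p, 0.45 for miR-124-5p and -0.25 for miR-128-1-5p with age in TG mice, 0.22 for miR-9-3p, 0.0054 for miR-124-5p, -0.38 for miR-128-1-5p and -0.15 for miR-128-2-5p with age in wild-type control mice, and 0.044 for miR-9-3p, 0.15 for miR-124-3p and 0.20 for miR-124-5p at 6 months. With depth as a covariate they were 0.32 for miR-9-3p, 0.34 for miR-124-5p and -0.35 for miR-128-1-5p with age in TG mice, 0.18 for miR-9-3p, -0.30 for miR-128-1-5p and -0.11 for miR-128-2-5p with age in wild-type control mice, and -0.23 for miR-124-3p and 0.059 for miR-128-3p at 3 months. For miR-128-1-5p with age in TG mice the value was -0.011 with DESeq2, -0.016 with RUVr factors, -0.0006 with RLE, -0.043 without the low-count filter and -0.064 with limma. In wild-type control mice it was -0.029 with RUVr factors and -0.17 with limma. For miR-128-2-5p in TG mice it was 0.050 with RUVr factors. With limma miR-9-5p was at -0.0058 and miR-124-3p at -0.013 at 3 months, and miR-9-5p at -0.034 at 6 months. With wild-type control mice 1 and 2 counted as TG, miR-128-2-5p was at 0.050 with age in TG mice, and miR-9-5p at -0.010, miR-9-3p at 0.14, miR-124-5p at 0.068 and miR-128-3p at 0.071 at 3 months. Without these 2 mice, miR-9-3p was at 0.0365 and the log2 ratio of miR-9-5p to miR-9-3p at -0.15 with age in wild-type control mice, and miR-9-5p at -0.0098 and miR-9-3p at 0.083 at 3 months. Without the 3 libraries that lay apart, the log2 ratios of miR-9 and miR-124 changed by -0.16 and -0.042 with age in wild-type control mice, and miR-9-5p was at -0.18 and miR-128-3p at 0.067 at 3 months. With single 3-month-old mice left out (each wild-type control mouse and TG mouse 3), values ran from -0.18 to 0.058 for miR-9-3p and -0.028 to 0.13 for miR-128-1-5p with age in wild-type control mice, where the log2 ratio of miR-9 ran from -0.073 to 0.21. At 3 months they ran from -0.037 to 0.17 for miR-9-5p, -0.15 to 0.11 for miR-9-3p, -0.30 to 0.0047 for miR-124-5p and -0.18 to 0.033 for miR-128-3p, and from -0.0001 to 0.13 for the ratio of the minor arms of miR-128. In TG mice with age miR-128-2-5p was at 0.24 without TG mouse 3.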
